A study of Rattus norvegicus with 4 samples.

Results

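The comparison described here set the left ventricle of losartan-treated dTGR against that of untreated dTGR, with 1 array on each side. It was taken from the labels: of the 4 arrays of the study, the 2 labelled as dTGR with and without losartan were compared over all 8740 of 8799 probe sets that were not array controls. The dTGR is a double transgenic rat that carries the human genes for renin and angiotensinogen. According to the labels these rats develop hypertension, heart hypertrophy and proteinuria and die after 7 weeks. Both compared groups carry the transgenes, and the label adds only the drug to the treated one. The other arrays were a Sprague Dawley control (SD control) and a sample labelled as terminal heart failure, whose title names no genotype, and they are given beside the members for reference. The promoters that drive the transgenes, the dose, start and duration of losartan, the ages, the animals behind each array and any pooling of RNA were looked for and are not stated in the sources used here. Total RNA had been hybridised to arrays A of the Affymetrix rat genome U34 set.

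Human renin cleaves human angiotensinogen but acts poorly on the rat protein, so that only a rat with both transgenes makes angiotensin through the human pathway. Angiotensin II, the product of the converting enzyme, acts through its type 1 receptor on blood vessels, adrenal cortex, heart muscle cells and fibroblasts. Losartan blocks that receptor and lowers blood pressure. In a ventricle under load, muscle cells return to part of the fetal gene program, of which the natriuretic peptide genes are the best known members, and the matrix between the cells is remodelled.

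An intensity of 26.0, the 40th percentile of all values on the 4 arrays, was used as the floor under which a gene had no level, and genes above it on at least 1 of the compared arrays were called measured. With 1 array per group there is no replicate error, no test was possible, and the number of arrays limits the precision of every difference. All differences below are therefore sizes on these arrays. The only spread the data offer is that between probe sets of one gene, whose log2 differences between the compared arrays had an SD of 0.60 over 739 genes. The compared arrays came from different chip lots, and the dTGR array alone was run with a fluidics protocol whose record gives 0 cycles for the first 2 kinds of wash, where the other 3 arrays record 10 and 4, and 0 seconds for the first stain, where they record 600. Whether these entries are true settings or unused fields of that protocol is not stated. Lot, fluidics protocol and treatment cannot be told apart. The 100 most intense probe sets held 46.3% of the signal on the dTGR array and 36.9% on the losartan array. Over all probe sets that were not controls, Spearman's rho between the losartan and SD control arrays was 0.92, the highest of any pair. The dTGR array was the least like the others, with a rho from 0.86 to 0.88. Nearness of the losartan array to the SD control, where given below for single genes, is therefore not particular to them. Ratios of 3′ to 5′ signal were 1.73 and 2.17 for Gapdh and 2.07 and 2.26 for actin, on the dTGR and losartan arrays. Genes of cardiac muscle such as Actc1, the cardiac actin, and Myh6, the alpha myosin heavy chain, lay between 8694 and 44870.1 on the 4 arrays.

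The starts of 3 genes on which the results turn are shown because all were lower on the losartan array than on the dTGR array. Nppa and Nppb encode the atrial and the brain natriuretic peptide, hormones of the overloaded heart that oppose angiotensin. Reg3b encodes a secreted lectin of the acute phase. The sequences are RefSeq promoters of the rat assembly GRCr8, from 250 bases before to 50 after the gene's start, on the + strand, at chr5:163711934-163712233 for Nppa, chr5:163699758-163700057 for Nppb and chr4:112419526-112419825 for Reg3b. Capitals mark 3 motifs, searched on both strands and found without overlap with one another. They are TGATAA, which cardiac GATA factors bind, the common start element TATAAA, and the motif of STAT factors, TTCNNNGAA.
Nppa: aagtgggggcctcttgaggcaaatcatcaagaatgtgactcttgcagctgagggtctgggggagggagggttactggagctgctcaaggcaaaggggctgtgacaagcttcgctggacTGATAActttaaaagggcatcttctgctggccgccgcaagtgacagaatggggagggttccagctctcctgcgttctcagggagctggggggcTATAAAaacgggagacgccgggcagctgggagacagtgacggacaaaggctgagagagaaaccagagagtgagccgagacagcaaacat
Nppb: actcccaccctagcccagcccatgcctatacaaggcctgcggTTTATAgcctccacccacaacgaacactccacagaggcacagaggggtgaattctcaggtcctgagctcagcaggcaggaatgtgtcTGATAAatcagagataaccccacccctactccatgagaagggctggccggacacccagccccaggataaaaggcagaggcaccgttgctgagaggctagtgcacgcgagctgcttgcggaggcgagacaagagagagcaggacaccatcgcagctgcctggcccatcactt
Reg3b: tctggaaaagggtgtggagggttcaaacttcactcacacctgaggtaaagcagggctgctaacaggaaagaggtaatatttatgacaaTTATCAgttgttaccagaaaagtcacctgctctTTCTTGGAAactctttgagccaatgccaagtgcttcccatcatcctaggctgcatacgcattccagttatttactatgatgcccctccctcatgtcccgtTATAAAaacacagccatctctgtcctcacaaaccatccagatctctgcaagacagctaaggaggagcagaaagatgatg
Nppa had TGATAA from 132 and TATAAA from 39 bases before its start. Nppb had TGATAA from 121 bases before its start and TATAAA on the other strand, written TTTATA, from 208. That TATAAA match lay farther from the start than those of Nppa and Reg3b and is not taken as the start element of Nppb. Reg3b had TGATAA on the other strand, written TTATCA, from 162, TTCTTGGAA from 129 and TATAAA from 29 bases before its start. Of 33469 promoters of the same length, 9.03% held TGATAA, 14.2% TATAAA and 8.87% TTCNNNGAA. A match is a description of the letters and says nothing of whether a factor is bound.

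Across the array, 218 of 3644 measured genes were at least 2-fold higher with losartan, which is 5.98%, and 345 were at least 2-fold lower, which is 9.47%. Together these 563 genes were 15.5% of those measured. The shares of 5.98% and 9.47% are those beside which every count of list or marker members below stands. The median log2 difference over all measured genes was -0.05. Of the 563 genes, 68 higher and 159 lower ones were above the floor on 1 array only, so that their folds are bounds. With values over the floor on each side stood 2839 genes, of which 150 (5.28%) were higher and 186 (6.55%) lower. Counted by probe set, 376 of 6177 were higher (6.09%) and 664 lower (10.7%), and of 872 probe sets with no symbol 69 were higher (7.91%) and 111 lower (12.7%). The share of higher genes among those past 2-fold depended on the scaling, at 38.7% on the deposited scale, 60.8% with arrays set to the same median, 49.2% after quantile normalization and 48.0% after cyclic loess. Setting the medians equal moved the median of all genes to 0.17.

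**Figure D1:**
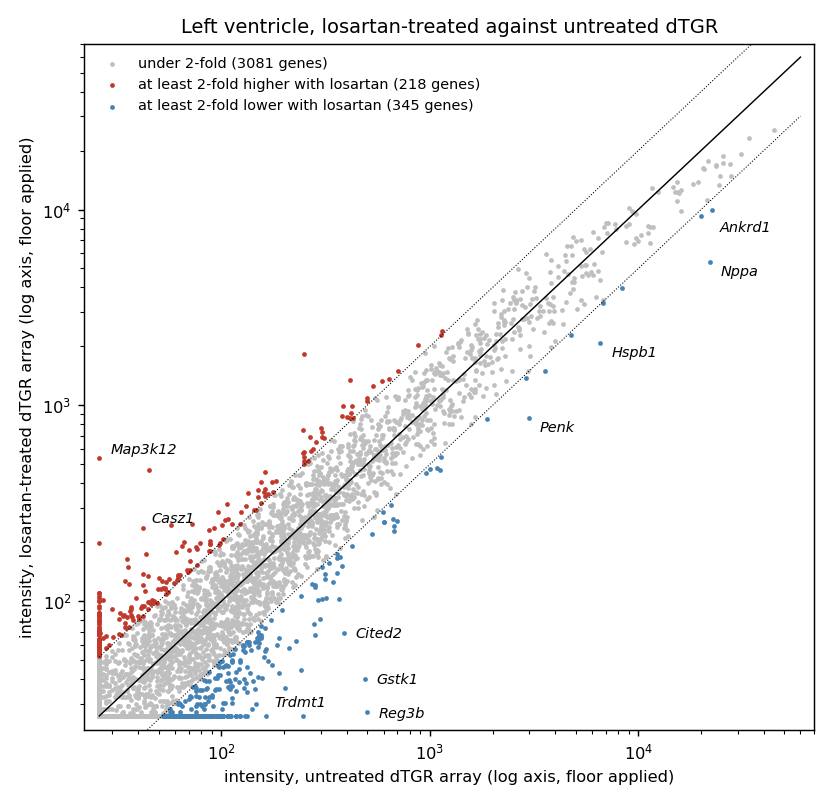
Intensity on the losartan array (vertical, log scale) against the untreated dTGR array (horizontal, log scale), 1 point per measured gene, with the 2-fold lines and the floor of 26.0. The 218 higher and 345 lower genes are coloured, and Nppa and Reg3b lie well below the diagonal.

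A second probe set of the same gene gave a measure of how far such calls hold within these arrays. Of 160 genes past 2-fold with another measured probe set, the other had the same sign in 113 (70.6%) and was itself past 2-fold in 27 (16.9%). For lower genes the same sign was seen in 72 of 91 (79.1%), and for higher genes in 41 of 69 (59.4%). The difference also moved with the level of the gene. Over 10 bins of mean level on the 4 arrays, the lowest bin held 4 higher and 20 lower genes, the sixth held 25 and 15, and the highest held 3 and 11. Among the 100 brightest genes the median difference was -0.30 on the deposited scale, 0.11 after quantile normalization and -0.05 after cyclic loess.

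**Figure D2:**
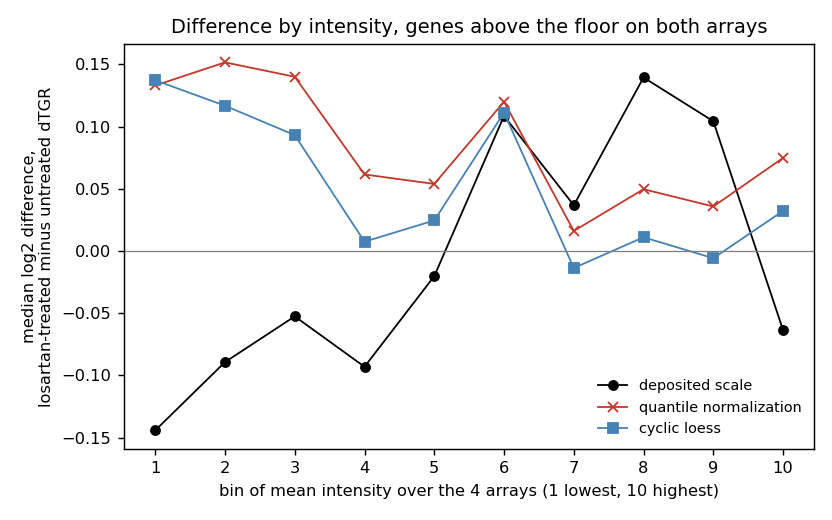
Median log2 difference, losartan minus dTGR (vertical), in 10 bins of genes by mean intensity over the 4 arrays (horizontal), for genes above the floor on each compared array, on the deposited scale, after quantile normalization and after cyclic loess. On the deposited scale the medians run from -0.14 in the dimmest bin to 0.14 in the eighth and -0.06 in the brightest.

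Of 17 measured genes of the hypertrophy and fetal program, 4 were at least 2-fold lower with losartan (23.5%, beside 9.47% of all measured genes) and 1 was higher (5.88%, beside 5.98%). The list's median was -0.70, beside -0.05 for all measured genes, and stayed below 0 under the other scalings, at -0.46 with equal medians, -0.38 after quantile normalization and -0.41 after cyclic loess. Nppa had an intensity of 1759.8 on the SD control, 22010.5 on the dTGR, 5408 on the losartan and 11721 on the terminal array. Where 4 intensities are given below, they follow this order. Nppa was 4.07-fold lower with losartan than without, and 3 other Nppa probe sets gave log2 differences, losartan minus dTGR, from -2.10 to -1.86. Values of other probe sets below are on that scale. The losartan array thus lay between the SD control and the untreated dTGR, above the first and below the terminal sample. Nppb read 2051, 3801, 1997 and 2791 in the same order and was 1.90-fold lower, under the 2-fold mark. Its level with losartan was close to that of the SD control. Ankrd1, the muscle ankyrin repeat protein CARP, read 6691, 22672, 9953 and 9400.4 and was 2.28-fold lower, but its log2 difference of -1.19 became -0.52 after quantile normalization. Only the dTGR array stood out for this gene. Acta1, the skeletal actin that hypertrophied hearts re-express, read 6959, 16079.8, 9856 and 9270.0 and was 1.63-fold lower. Its log2 difference of -0.71 became -0.23 after quantile normalization and -0.41 after cyclic loess.

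The other genes of this list that passed 2-fold encode parts of the cytoskeleton. Des, the intermediate filament desmin, read 5579, 8369, 3957 and 6879.9 and was 2.11-fold lower with losartan. Tpm2, a tropomyosin of slow skeletal and smooth muscle, read 64.2, 164 and 133 on the SD control, dTGR and terminal arrays, was under the floor with losartan, and was at least 6.32-fold lower. Myl9, a regulatory light chain of smooth muscle myosin, read 772, 412, 1353 and 356 and was 3.28-fold higher. It was low in both diseased samples without losartan, although another probe set of Myl9 gave a difference of -0.31. In bulk tissue, fewer cells of a type and less RNA per cell cannot be told apart. Of 7 measured smooth muscle markers Myl9 was higher and 2, Des and Cnn1, were lower, with summed intensities of 10040.2 in dTGR and 6582 with losartan, beside 8156 in the SD control and 8786 in the terminal sample. Des, which cardiac muscle also expresses strongly, made up most of these sums, and without it they were 1671 in dTGR and 2625 with losartan, beside 2576 and 1906, so that the direction turned. Of the sums without Des, Myl9 held 412 in dTGR and 1353 with losartan. The turn thus rested largely on that Myl9 probe set, with which the other Myl9 probe set disagreed in sign. Of 5 measured atrial markers only Nppa passed 2-fold, and Myl4 and Kcna5, an atrial light chain and an atrial potassium channel, were under the floor on both compared arrays. The part of these cells in the results was not tested.

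**Figure D3:**
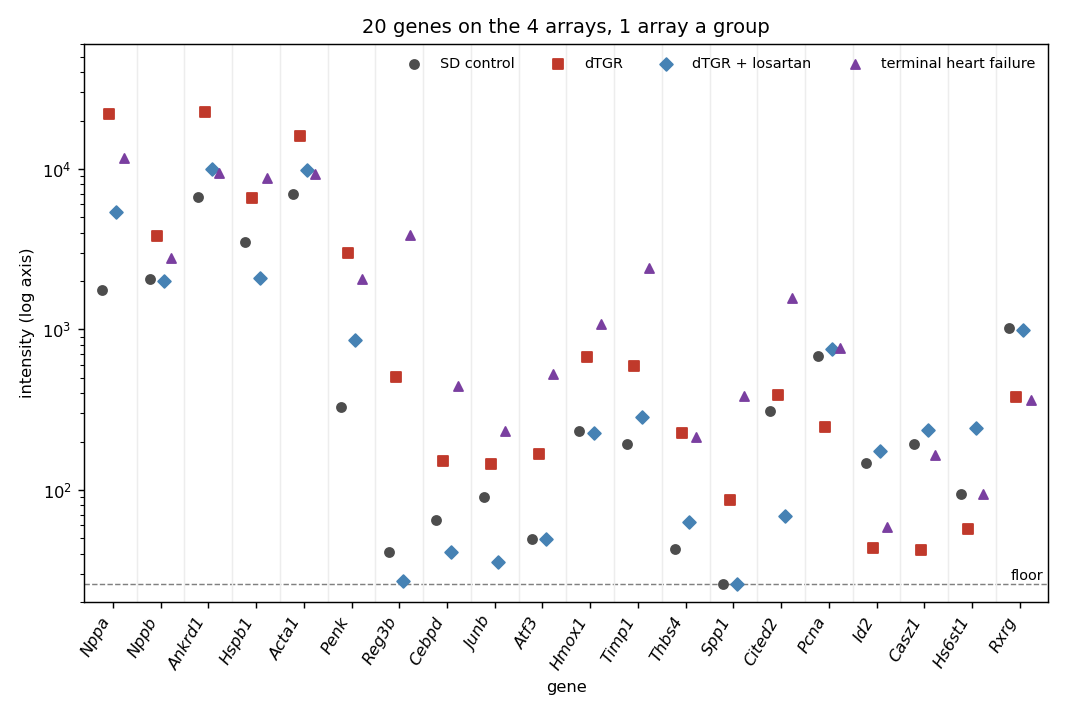
Intensity (log scale) of named genes on the SD control, dTGR, losartan and terminal arrays, 1 point per array, with values under the floor of 26.0 drawn at it. Nppa, Reg3b, Penk and Hmox1 are highest on the dTGR or terminal array and lower with losartan.

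The genes of contraction and calcium handling gave few differences past 2-fold. Of 29 measured, 1 was higher and 1 lower, and the median of -0.28 was -0.10 with equal medians and -0.05 after cyclic loess, but 0.21 after quantile normalization. Myh7, the beta myosin heavy chain, is counted in the hypertrophy list and not in this one. It read 12389.8, 23569, 16597 and 13510.2, a log2 difference of -0.51 that became 0.17 after quantile normalization. Its other probe set read 3662, 15533, 6699 and 7169 and was 2.32-fold lower with losartan, a difference of -1.21. Myh6, its alpha counterpart, differed by -0.35 and by 0.16 after quantile normalization. The pump that returns calcium to the sarcoplasmic reticulum, Atp2a2, differed by -0.56 and 0.16 on the same scales, and its other probe sets ran from -0.19 to 1.23. Actc1 differed by -0.82 and 0.04. All 4 are among the brightest genes, and on the brightest probe set of each the sign turned after quantile normalization only. With equal medians the 4 differences ran from -0.58 for Actc1 to -0.11 for Myh6, and after cyclic loess from -0.33 to -0.03 for the same genes. Cardiomyocyte markers gave the same picture, with a summed intensity of 228134 in dTGR and 158592 with losartan, 0 of 11 higher, 1 lower and a median of -0.48 that was -0.25 with equal medians, -0.11 after cyclic loess and 0.16 after quantile normalization.

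For 3 dimmer members the sign was the same after quantile normalization and cyclic loess. Ryr2, the calcium release channel, read 110.4, 113, 53.6 and 70.7 and was 2.12-fold lower with losartan. Slc8a1, the sodium-calcium exchanger, read 101, 351, 194 and 173 and was 1.80-fold lower, while its other probe sets ranged from -1.66 to 0.48. Cacnb2, a subunit of the L-type calcium channel, was under the floor in dTGR, read 71.6 with losartan and was at least 2.75-fold higher, but its other probe set gave -0.11. Of 17 measured members of the potassium and sodium channel list, which holds Gja1, 0 were higher and 3 lower (17.6%). Of all measured genes 5.98% were higher and 9.47% lower, and the list's median was 0.06. Gja1, the main connexin of ventricular gap junctions, read 278, 174, 47.0 and 153 and was 3.70-fold lower, with the losartan array the lowest of the 4. Kcnq1, a repolarising potassium channel, was 2.19-fold lower and Kcnk1, a background potassium channel, 2.24-fold lower. Gja4, a connexin of arterial endothelium that is outside this list, read 200.5, 280.3, 67.7 and 101 and was 4.14-fold lower.

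Within the renin-angiotensin, aldosterone and natriuretic systems 0 of 22 measured genes were higher and 5 were lower (22.7%), beside 5.98% and 9.47% of all measured genes, at a median of -0.24 that was -0.02 with equal medians. The gene lists share members, so their counts are not separate results. The 5 lower genes here include Nppa, which the hypertrophy list and the atrial markers also count. Probe sets of the rat array read the rat genes, and no value here is taken as the level of the human transgenes. Agt, the rat angiotensinogen gene, read 39.1, 37.7 and 39.6 on the SD control, dTGR and terminal arrays and was under the floor with losartan, a difference under 2-fold. Ace, the converting enzyme, read 86.1, 128, 95.2 and 334 and was 1.34-fold lower with losartan, a difference within the spread between probe sets. The type 1 receptor is encoded by 2 genes in the rat. Agtr1a read 45.0 on the SD control, was barely over the floor with losartan, and was under it on the dTGR and terminal arrays. Agtr1b read 53.0 in dTGR, was under the floor with losartan and was at least 2.04-fold lower, but its other probe set gave 0.90 in log2. These levels were too near the floor to order the arrays.

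Downstream of receptors, Plcb3, a phospholipase C of the pathway that angiotensin receptors use, read 41.1, 121, 38.5 and 56.6 and was 3.15-fold lower with losartan. Bdkrb1, a bradykinin receptor, read 101, 82.3, 28.1 and 68.2 and was 2.93-fold lower, with a second probe set at -1.09. Npr3, the clearance receptor for natriuretic peptides, read 59.2 in dTGR and was at least 2.28-fold lower. For Plcb3 the dTGR array was the high one, whereas for Bdkrb1 the losartan array was the low one. Among 22 measured genes of vasoactive peptides and nitric oxide, 0 were higher and 3 lower (13.6%), beside 5.98% and 9.47% of all measured genes. Their median was -0.45. Penk, the precursor of the enkephalins, which the heart makes in quantity, read 327, 2999, 864 and 2063 and was 3.47-fold lower with losartan. It was higher on the dTGR and terminal arrays than on the other 2. Adm, the vasodilator adrenomedullin, read 53.2, 107, 60.8 and 239 and was 1.75-fold lower. Avp, the vasopressin gene, was 2.22-fold lower, and Pde5a, which breaks down cyclic GMP, at least 2.10-fold lower.

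The 54 measured genes of extracellular matrix and fibrosis held 4 that were higher (7.41%) and 13 that were lower (24.1%), beside 5.98% and 9.47% of all measured genes, at a median of -0.31 that was -0.24 after quantile normalization and -0.08 with equal medians. Thbs4, a thrombospondin of stressed muscle, read 43.0, 227, 63.0 and 212 and was 3.61-fold lower. Timp1, an inhibitor of matrix metalloproteinases, read 193, 594, 286 and 2414 and was 2.08-fold lower, with a second probe set at -2.14. Both were high on the arrays of dTGR and of terminal failure, and with losartan lay nearer to the SD control. Spp1, the secreted phosphoprotein osteopontin, read 85.9 in dTGR and 384 in the terminal sample and was under the floor on the SD control and losartan arrays, hence at least 3.31-fold lower. Tgfb2, a transforming growth factor, read 36.5, 129, 36.2 and 67.0 and was 3.55-fold lower. Timp3, another inhibitor, read 159.8, 112, 30.1 and 163 and was 3.72-fold lower. Unlike the others, Timp3 was not higher in dTGR than in the SD control, and the losartan array alone was low. Col8a1, a short-chain collagen of vessel walls, was at least 3.31-fold lower.

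The main fibrillar collagens did not share that direction. Col1a1 read 2164, 1015, 1609 and 1006 and was 1.59-fold higher with losartan, with other probe sets from -0.31 to 0.44 in log2. Col3a1 read 3814, 2224, 3451 and 947 and was 1.55-fold higher, although its other probe set gave -0.67. Neither passed 2-fold, and probe sets of one gene disagreed in sign. Col15a1, a collagen of basement membranes, read 246, 104, 261 and 43.4 and was 2.50-fold higher. Plat, the tissue plasminogen activator, was 2.65-fold higher and Tnc, the matricellular protein tenascin C, 2.31-fold higher. Of the 11 fibroblast markers 0 passed 2-fold, and their median was 0.63. Their summed intensities were 15019 in dTGR and 17779 with losartan, beside 17343 in the SD control and 16869 in the terminal sample. Without Dcn, the brightest, the sums were 6317 in dTGR and 9557 with losartan, beside 9667 in the SD control and 5393 in the terminal sample. The fibroblast list holds collagens too, and its part in the result was not tested.

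Among 45 measured genes of the acute phase and inflammation, 2 were higher (4.44%) and 7 lower (15.6%) with losartan, beside 5.98% and 9.47% of all measured genes, at a median of -0.39. The 7 lower genes include Spp1, which the matrix list above also counts. Reg3b read 41.2, 502, 27.1 and 3846 and was 18.5-fold lower, the largest difference of any gene measured on each side. Its level with losartan was just over the floor, below that of the SD control, while the dTGR and terminal arrays were both high. No second probe set above the floor was named Reg3b. Il6st, the receptor subunit shared by Lif and related cytokines, read 36.5, 111 and 98.3 on the SD control, dTGR and terminal arrays, was under the floor with losartan and was at least 4.28-fold lower. Cebpd, a transcription factor induced by such cytokines, read 64.9, 151, 41.0 and 443 and was 3.67-fold lower, while its other probe sets ranged from -1.51 to -0.34. Lif, leukemia inhibitory factor, was 2.30-fold lower. Pla2g2a, a secreted phospholipase, was 2.55-fold lower and Fga, a fibrinogen chain, at least 2.81-fold lower. The higher ones were Vcam1, an adhesion molecule of activated endothelium, at least 2.33-fold, and Il15, a cytokine, at least 2.22-fold, though its other probe set gave -0.35.

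Markers of leukocytes were measured beside these genes. Of 9 measured macrophage markers 0 were higher and 1, Aif1, lower, and their summed intensity was 3435 in the SD control, 4123 in dTGR, 3950 with losartan and 6025 in the terminal sample. Of 7 lymphocyte markers 3 were lower, all as bounds, with sums of 444 in dTGR and 320 with losartan. Without Lck, the brightest of them, the sums were 356 in dTGR and 172 with losartan. Of 4 neutrophil and mast cell markers 0 passed 2-fold in either direction. Of the macrophage markers 7 of 9 were lower by any amount, at a median of -0.44, and without Cd74, the brightest, their sum was 1903 in the SD control, 2745 in dTGR, 1962 with losartan and 5359 in the terminal sample. The part of these cells in the results on inflammation was not tested. Antigen presentation and interferon genes gave 1 higher and 2 lower of 32, at a median of -0.06 that was 0.02 after quantile normalization and 0.13 with equal medians. The lower ones were the class II genes RT1-Ba, which was 2.41-fold lower, and RT1-Db1, which was 2.22-fold lower, and the higher one was Irf1, an interferon regulatory factor, at 2.32-fold, with its other probe set at 0.27.

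Of 28 measured immediate early genes 1 was higher (3.57%) and 3 were lower (10.7%), beside 5.98% and 9.47% of all measured genes. Their median was -0.41. Atf3, a stress-induced transcription factor, read 49.2, 167, 49.5 and 528 and was 3.39-fold lower with losartan. Junb, a subunit of AP-1, read 90.2, 145, 35.7 and 231 and was 4.07-fold lower, with its other probe set at -0.54. For Atf3 the losartan and SD control arrays were nearly equal, and for Junb the losartan array was the lowest. Crem, a regulator of cyclic AMP responses, read 137, 195, 89.9 and 502 and was 2.17-fold lower. Id2, an inhibitor of helix-loop-helix factors, ran the other way, at 146, 43.7, 175 and 58.5, and was 4.01-fold higher. Both diseased samples without losartan were low for Id2. Of 12 glucocorticoid-responsive genes 1 was higher (8.33%) and 3 lower (25%), at a median of -0.28 that was -0.04 with equal medians. A negative difference was seen in 9 of the 12. Cebpd, given above, was 3.67-fold lower, and Pdk4, described with the fatty acid genes below, was 2.77-fold lower. Nr3c1, the glucocorticoid receptor, was 2.02-fold lower and Klf9, one of its target genes, 2.07-fold higher, with the other probe set of Klf9 at -0.28.

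The growth factor and MAP kinase list gave 2 higher (4.17%) and 7 lower (14.6%) of 48, beside 5.98% and 9.47% of all measured genes. Its median of -0.14 was 0.05 with equal medians. Flt1, a receptor for vascular endothelial growth factor, read 81.0, 133, 34.5 and 133 and was 3.84-fold lower with losartan, the lowest of the 4 arrays. Fgfr1, a fibroblast growth factor receptor, read 311, 289.9, 102 and 179 and was 2.85-fold lower, with its other probe set at -1.89. Igfbp5, a binding protein of insulin-like growth factors, was at least 3.90-fold lower, but its other probe set gave 0.48. Of 7 endothelial markers 2 were lower, Flt1 and Icam2, with sums of 1153 in dTGR and 967 with losartan, and their part was not tested. In the adrenergic and cyclic AMP list, 6 of 40 were higher and 6 lower, 15% each way beside 5.98% and 9.47% of all measured genes, at a median of -0.14 that was 0.08 with equal medians. Adrb1, the main beta receptor of cardiac muscle, read 55.9, 116 and 40.3 on the SD control, dTGR and losartan arrays, was under the floor in the terminal sample, and was 2.88-fold lower with losartan. Pde3a, a phosphodiesterase, read 87.1, 112, 32.1 and 52.0 and was 3.49-fold lower. Pde4a, a phosphodiesterase of another family, read 268, 60.9, 178 and 103 and was 2.93-fold higher, with its other probe set at 0.16. The catalytic subunits of protein kinase A were split in the same way, with Prkaca 2.12-fold lower and Prkacb 2.19-fold higher. Arrb2, an arrestin that ends receptor signalling, was 2.99-fold lower, with a second probe set at -1.10.

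**Figure D4:**
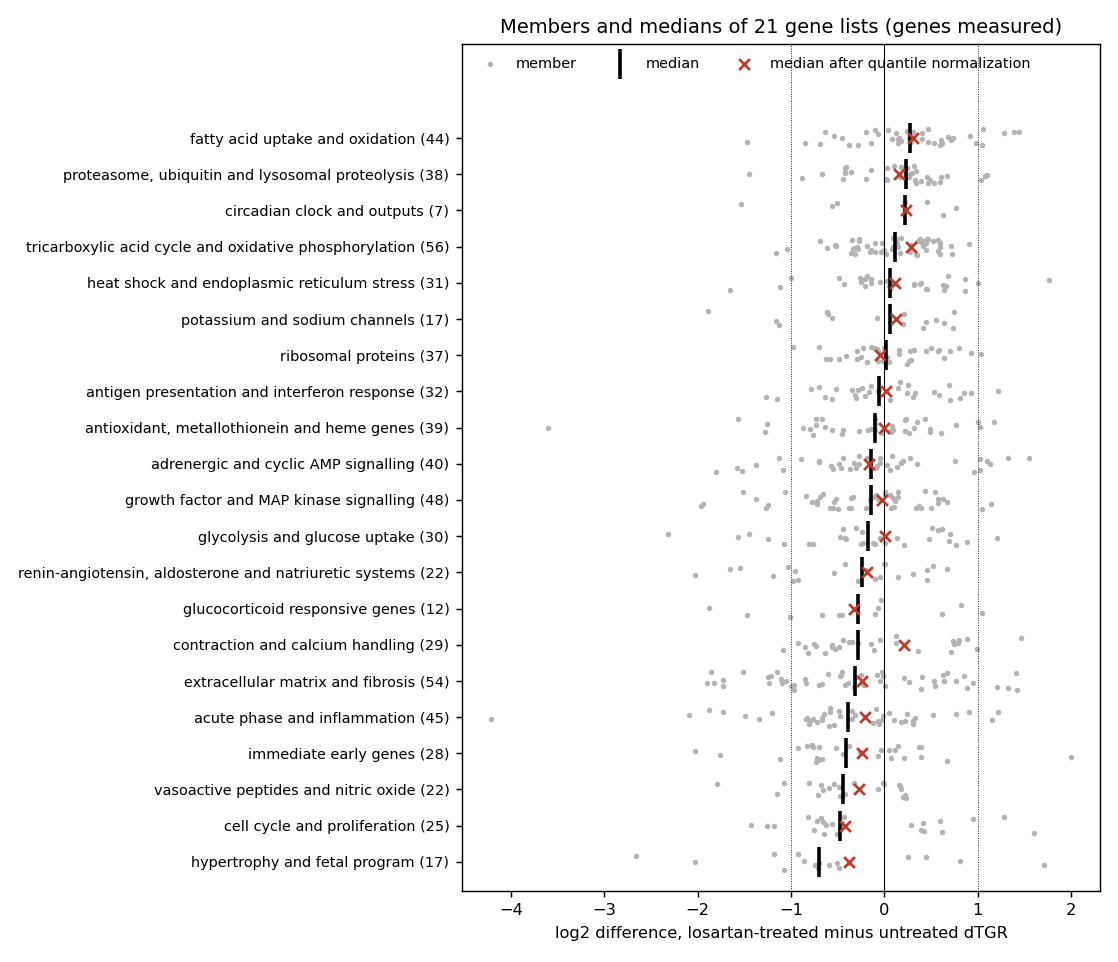
Log2 difference, losartan minus dTGR, of the measured members of each gene list (1 point per gene), with the list's median on the deposited scale and after quantile normalization. Medians run from -0.70 for the hypertrophy list to 0.28 for fatty acid uptake and oxidation, and that of contraction and calcium handling moves from -0.28 to 0.21 between the scales.

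The fatty acid genes had the highest median of the 21 gene lists. Of 44 measured, 5 were higher (11.4%) and 1 lower (2.27%), beside 5.98% and 9.47% of all measured genes. A positive difference was seen in 32 of the 44, beside 1717 of all 3644, and the median was 0.28, beside 0.31 after quantile normalization and 0.27 after cyclic loess. Rxrg, the retinoid X receptor gamma, read 1019.7, 381, 998 and 364 and was 2.62-fold higher with losartan, with other probe sets from 0.35 to 1.41. Echs1, the hydratase of mitochondrial beta oxidation, read 1592, 1147, 2389 and 1074 and was 2.08-fold higher. For both genes the dTGR and terminal arrays were the low ones. Acot2, a mitochondrial thioesterase, was 2.43-fold higher but its other probe set gave -1.10, and Acsl3, an acyl-CoA synthetase, was at least 2.72-fold higher with its other probe set at -0.73. Pdk4, which restrains the use of pyruvate when fat is burnt, read 117, 80.6, 29.1 and 447 and was 2.77-fold lower. In the tricarboxylic acid cycle and oxidative phosphorylation, 0 of 56 genes were higher and 2 lower, at a median of 0.12. The lower ones were Cox6c, a subunit of cytochrome oxidase, at 2.23-fold and Atp5f1d, a subunit of ATP synthase, at 2.06-fold. The median of these 56 genes rose to 0.28 after quantile normalization and 0.25 after cyclic loess, near those of the fatty acid genes. With equal medians it was 0.35, beside 0.51 for the fatty acid genes. Uqcrc2, a core subunit of complex III, read 4008, 2658, 4972 and 2463 and was 1.87-fold higher, under the 2-fold mark.

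Glycolysis and glucose uptake gave 1 higher (3.33%) and 5 lower (16.7%) of 30, beside 5.98% and 9.47% of all measured genes. The list's median of -0.18 was 0.00 after quantile normalization and 0.03 with equal medians. Eno3, the muscle enolase, read 603, 247, 569 and 95.3 and was 2.31-fold higher. Akt2, a kinase of insulin signalling, read 113, 139.9, 28.1 and 101 and was 4.98-fold lower, with its other probe set at -0.80. Insr, the insulin receptor, was at least 2.96-fold lower, and Fbp2, the muscle fructose bisphosphatase, at least 2.73-fold lower. Eno3 was high where Rxrg and Echs1 were high, on the SD control and losartan arrays, whereas Akt2 was low on the losartan array alone.

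The list of antioxidant enzymes, metallothioneins and heme genes, with 39 measured, held 3 higher (7.69%) and 4 lower (10.3%). Of all measured genes 5.98% were higher and 9.47% lower. The list's median of -0.10 was 0.14 with equal medians. Hmox1, the inducible heme oxygenase, read 233, 672, 227 and 1078 and was 2.96-fold lower with losartan, with its other probe set at -2.98. The losartan array was close to the SD control for this gene, and the same arrays were the most alike of any pair over all probe sets. Gstk1, a mitochondrial glutathione transferase, read 822, 490.4, 40.2 and 134 and was 12.2-fold lower, while its other probe set gave 0.21. Prdx1, a peroxiredoxin, read 826, 592, 1335 and 873 and was 2.26-fold higher. Alas2, which starts heme synthesis in red cells, was 2.39-fold lower. It is one of 4 measured erythroid markers, of which 2 were lower, with sums of 27212 in dTGR and 18946 with losartan, and the part of blood in the result was not tested. Among 31 heat shock and endoplasmic reticulum genes 2 were higher and 2 lower, 6.45% each way, at a median of 0.06. Hspb1, a small heat shock protein abundant in muscle, read 3501, 6581, 2084 and 8738 and was 3.16-fold lower, while its other probe sets ranged from -2.41 to -0.44. Hspb6, a relative of it, read 8576, 20079, 9238 and 8182 and was 2.17-fold lower, but by only -0.54 in log2 after quantile normalization. Hspa4, a large chaperone, was 3.40-fold higher, but its other probe set gave 0.04, and Pdia3, a disulfide isomerase, just reached 2-fold, with its other probe set at -1.08.

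In cell cycle and proliferation 2 of 25 measured genes were higher (8%) and 3 lower (12%), beside 5.98% and 9.47% of all measured genes. The list's median was -0.48. Pcna, the clamp of DNA replication, read 685, 247, 752 and 770.0 and was 3.05-fold higher with losartan, with its other probe set at 1.06. The dTGR array was the low one among the 4. Cdk1, the mitotic kinase, read 62.6, 36.7 and 89.3 on the SD control, dTGR and losartan arrays, was under the floor in the terminal sample, and was 2.44-fold higher. Ccng1, a cyclin-like gene induced by DNA damage, read 3277, 3579.9, 1499.5 and 3925 and was 2.39-fold lower. Ribosomal proteins gave 1 higher and 0 lower of 37, at a median of 0.02 that was -0.05 after quantile normalization. Proteolysis genes gave 3 higher (7.89%) and 1 lower (2.63%) of 38, at a median of 0.24, and 27 of the 38 had a positive difference. Among them Lamp2, a lysosomal membrane protein, was 2.05-fold higher and Ctsk, a lysosomal protease, 2.15-fold higher. Of 7 clock genes 1 was lower. Dbp, an output gene of the clock, read 213, 189.8, 65.3 and 76.3 and was 2.91-fold lower, and Bmal1, a core clock factor, read 148, 58.0, 98.8 and 178 and was 1.70-fold higher. The sources used here do not state the time of day at which tissue was taken.

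The largest differences over the whole array, where each side was over the floor and no probe set had the opposite sign, include several outside these lists. With losartan, Casz1, a zinc finger factor of heart development, read 236 against 42.0 in dTGR, with 192 in the SD control and 164 in the terminal sample, and was 5.62-fold higher. Lrba, a vesicle trafficking protein, read 165 against 35.4 and was 4.66-fold higher. Hs6st1, which sulfates heparan sulfate, read 245 against 57.2 and was 4.27-fold higher. Gng10, a G protein gamma subunit, was 4.20-fold higher, and Slc25a14, Myo5b, Dtd1, Abcc6 and Fra10ac1 were 3.05-fold to 3.77-fold higher. For Casz1, Lrba and Gng10 the dTGR array was below all 3 others, and for Hs6st1 the losartan array was above all 3 others. On the lower side, Cited2, a co-regulator that competes with hypoxia-inducible factor, read 312, 388, 69.0 and 1568 and was 5.63-fold lower, while its other probe sets ranged from -1.40 to -1.21. Med25, a subunit of the Mediator complex, read 365, 201, 35.9 and 235 and was 5.60-fold lower. Emp1, an epithelial membrane protein, was 5.43-fold lower and Apbb1, an adaptor of the amyloid precursor protein, 4.89-fold lower, the latter with a second probe set at -2.37. Hbe2, a hemoglobin gene, was 4.43-fold lower, and Actg2, the enteric smooth muscle actin, 3.86-fold lower.

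Among genes above the floor on 1 array only, Map3k12, a kinase of the stress pathway to JNK, had the largest bound. It read 540.2 with losartan and 95.6 in the terminal sample, was under the floor in the SD control and dTGR, and was at least 20.8-fold higher. Plpp2, a lipid phosphatase, was at least 7.67-fold higher, though its other probe set gave -1.05. Both arrays that showed Map3k12 came from one chip lot. Grk4, Pnpla3, Umod and Prrc2c were at least 4.02-fold to 4.26-fold higher. In the other direction Trdmt1, an RNA methyltransferase, read 35.0, 246 and 41.8 on the SD control, dTGR and terminal arrays and was at least 9.46-fold lower with losartan. Mplkip, Nipsnap2, Iglc1, Ctla4, Ica1 and Scarb2 were at least 4.52-fold to 5.12-fold lower, with the other probe set of Ctla4 at -0.06.

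Terminal failure against SD control uses neither of the compared arrays, and so gives a pair against which its genes can be set, although that pair too runs from one chip lot to the other. Of 3373 genes measured there, 215 were at least 2-fold higher in the terminal sample (6.37%) and 284 lower (8.42%). Of the genes lower with losartan, 41 were higher in the terminal sample, which is 11.9% of the 345 and 19.1% of the 215. Of the genes higher with losartan, 42 were lower there, which is 19.3% of the 218 and 14.8% of the 284. In the same direction on both pairs lay 11 higher genes, 5.05% of the 218 and 5.12% of the 215, and 27 lower genes, 7.83% of the 345 and 9.51% of the 284. The 345 hold genes under the floor on both arrays of the terminal pair, such as Iglc1, Mplkip and Mapk8, which could not be called there. The shares of the 218 and 345 thus have another base than those of the 3373. Over the 2583 genes above the floor on all 4 arrays, Pearson's r between the 2 differences was -0.13 and Spearman's rho -0.08, a description across genes that share arrays, lots and scaling.

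The 41 genes that were lower with losartan and higher in terminal failure included Nppa, Reg3b, Penk, Timp1, Thbs4, Spp1, Col8a1, Hmox1, Hspb1, Cited2, Atf3, Junb, Crem, Cebpd, Il6st, Pdk4 and Tpm2. Others of that set, named after their values were seen, were Lox, the enzyme that crosslinks collagen, at 109.9, 96.9, 41.8 and 529.5, and Pdlim5, a protein of the Z disc, at 48.3, 101, 49.5 and 404. Lox was 2.32-fold lower with losartan, with other probe sets from -0.26 to -0.24, and Pdlim5 2.04-fold lower. Plaur, the urokinase receptor, was at least 2.85-fold lower and reached 235 in the terminal sample. The 42 genes that were higher with losartan and lower in terminal failure included Col15a1, Rxrg, Eno3, Id2, Cdk1, Myl9, Pde4a and Pnpla3. Fdft1, the squalene synthase, also named after its values were seen, read 323, 149.5 and 369 on the SD control, dTGR and losartan arrays, was under the floor in the terminal sample, and was 2.46-fold higher with losartan. Genes that went the same way on both pairs included Gstk1, Dbp, Adrb1, Avp, Kcnq1, Prkaca and RT1-Ba on the lower side and Map3k12, Plpp2, Grk4, Plat, Acot2, Rpl5 and Pdia3 on the higher side. For those genes the chip lot changed in the same sense on both pairs, and its part in the result cannot be told apart.

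**Figure D5:**
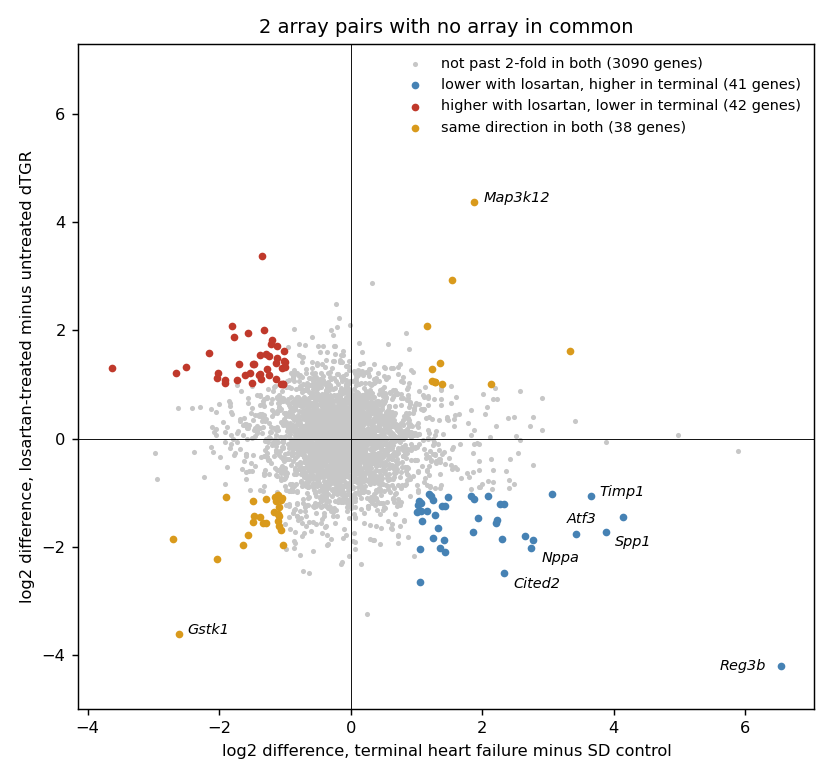
Log2 difference of losartan minus dTGR (vertical) against terminal failure minus SD control (horizontal), 1 point per gene, coloured where past 2-fold on both axes. The quadrants of opposite direction hold 41 and 42 coloured genes, with Reg3b farthest to the lower right, and those of the same direction 11 and 27.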

How the data were processed

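Total RNA of rat left ventricle had been measured on 4 arrays, 1 per group. The authors' deposited table gives 1 linear intensity per probe set and array; the sources used here do not name the software or its settings. Chip lots and fluidics protocols are per the file headers of the deposited instrument records. Of 35196 values, 13625 low ones have the form of a day and month, as a spreadsheet writes them, which shifts each by less than 1 unit. The arrays were deposited on a like scale, with means of 199.2 to 199.6 when the lowest and highest 2% were left out. Each array was multiplied by the small factor that made these means equal, and the result is called the deposited scale here. Platform annotation gave 1 gene symbol for 7006 probe sets, none for 1426 and several for 308, with 59 controls left out, and 6985 of the 7006 matched the rat gene table. The 4736 genes were each read from their probe set with the highest mean. Values under the floor of 26.0 were set to it before taking log2, so that a fold against such a value is a lower bound, and genes were counted from 2-fold.

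The deposited values carry no counts or replicates, so no test was made and depth has no meaning here. The rule for named genes took the 12 largest differences in each direction where each side was over the floor and no probe set had the opposite sign (predicted genes left out), in each list up to 4 measured members that differed most, up to 8 bounds in each direction from at least 4 times the floor, and 18 fixed genes. Not every gene it takes is described. Agtr1b, Col15a1, Tnc, Plat, Des, Echs1, Eno3, Prdx1, Prkaca, Prkacb, Lif, Fga, Pla2g2a, Vcam1, Il15, Cnn1, Aif1, Icam2, Cd74, Lox, Pdlim5, Plaur and Fdft1 were named after their values were seen. The members, the 21 gene lists and the 12 marker lists were chosen with earlier results of these data known. Scripts were tested on simulated data. Promoters came from RefSeq (GRCr8), which had 101 of the 123 genes under the rule. Alternatives were equal medians, quantile normalization, cyclic loess, 2 other floors, the median over probe sets of a gene, low values read as 1 decimal, and other folds; the overlap with the terminal pair under other scalings and marker sums without the brightest marker were added after seeing the data. Python 3.11.15, numpy 2.4.6, pandas 2.3.3, matplotlib 3.10.9, R 4.3.3 and limma 3.58.1 were used.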

Additional observations from a re-analysis of the deposited data

How the results depend on the processing

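No paired analysis was possible because each group had 1 array. The 218 higher and 345 lower genes became 340 and 219 with arrays set to the same median, 275 and 284 after quantile normalization and 245 and 265 after cyclic loess. Of those, 218 and 219, 209 and 281, and 204 and 258 were shared with the 218 and 345. A floor at the 25th percentile gave 423 and 647, one at the 60th gave 93 and 92, and a demand for values above the floor on both arrays left 150 and 186, all by changing which dim genes could pass. A call at 1.5-fold gave 614 and 811, at 3-fold 37 and 94, and over every probe set 376 and 664. The median over probe sets of a gene gave 161 and 283, and low values read as 1 decimal 216 and 345. Of 98 named genes past 2-fold, 37 stayed past it under all 7 scaling, floor, probe set and low value alternatives, among them Nppa, Reg3b, Penk, Thbs4, Cebpd, Junb, Atf3, Hmox1, Hspb1, Cited2, Id2 and Pcna, while Ankrd1, Timp1, Spp1, Il6st, Tgfb2, Timp3, Rxrg and Myl9 did not. Pdia3 reversed to -0.036 with the median of its probe sets. Under the 3 added scalings, 31 to 38 genes were lower with losartan and higher in terminal failure (41 as deposited), 38 to 46 the reverse (42), 16 to 20 higher in both (11) and 17 to 20 lower in both (27). Neither compared array could be left out, and the number of arrays limits the precision.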

Other observations

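Some of the largest differences lay in probe sets for which the annotation used here gave no symbol. The probe set AB020504_g_at read 67.7, 58.8, 551 and 65.7 on the SD control, dTGR, losartan and terminal arrays and was 9.36-fold higher with losartan. The probe set rc_AA859597_at read 71.6, 80.2, 707 and 116 in the same order and was 8.81-fold higher. For both, the losartan array alone was high and the other 3 were alike. On the lower side rc_AI014135_at read 26.1, 185 and 32.2 on the SD control, dTGR and losartan arrays, was under the floor in the terminal sample, and was 5.75-fold lower.

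Stk39, a kinase that activates sodium-chloride cotransporters and was named after its values were seen, read 477 on the SD control, 45.0 on the dTGR, 469 on the losartan and 187 on the terminal array. It was 10.4-fold higher with losartan, whereas its other probe sets gave log2 differences from -0.20 to 0.83.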
